A study of Rattus norvegicus with 9 samples.

Results

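The genes described here build the postsynaptic density, the protein layer under the membrane of excitatory synapses. They are the 4 Dlg scaffold genes (Dlg1, Dlg2, Dlg3 and Dlg4), the linker gene Dlgap1, the 3 Shank genes and Camk2a, which encodes the alpha subunit of calcium/calmodulin-dependent kinase II. Members were chosen as every probe whose gene name on the array is 1 of these 9 symbols. Read literally, that gave 7 probes of 5 genes (Camk2a, Dlgap1, Shank1, Shank2 and Shank3). The 4 Dlg genes stand on the array under the older names Dlgh1 to Dlgh4, which add 5 probes, so that 12 probes of 9 genes were described out of 41012 probes on the array. All 12 stood well above background on all 9 arrays, none was saturated on any array, and all 12 passed the filter on dim probes that 30322 probes passed.

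Dissociated neurons from the cortices of prenatal rat pups, in culture for 11 to 15 days, were measured on 9 single-colour arrays, 3 per group. Every culture had spent 48 h in tetrodotoxin (TTX), a blocker of voltage-gated sodium channels that silences action potentials. Cultures of the TTX group were harvested with the toxin present, and those of the other groups 15 min or 45 min after its removal with 3 washes. The design asks which transcripts change when firing resumes. The labels give washes for the washout groups only. In the comparisons with TTX the washing itself was therefore not tested apart from the return of firing. No group without TTX was part of the comparisons. The labels do not say whether the 3 samples of a group came from separate cultures, so the p-values measure the spread between these samples, which may be technical.

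In the postsynaptic density, Dlg proteins bind glutamate receptors and adhesion molecules through their PDZ domains. Dlgap proteins link Dlg proteins to Shank proteins, and Shank proteins tie this assembly to Homer and to the actin cytoskeleton. Calcium/calmodulin-dependent kinase II is activated by calcium entry during synaptic activity and is one of the most abundant proteins of the density. Its alpha subunit is also known for an mRNA that is carried into dendrites and translated there.

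The Dlg genes are paralogs, and the probes of Dlg2, Dlg3 and Dlg4 shown next lie in homologous stretches. Their alignment shows how alike these probe sequences are. The probe sequences were read from the array files, and capitals mark the bases that are the same in all 3 over the 48 bases the probes share. The Dlg2 probe lies at chr1:149352770-149352829, the Dlg3 probe at chrX:88899969-88901029 and the Dlg4 probe A_44_P238312 at chr10:56903308-56903367, all on the plus strand of the rat build rn3. The Dlg3 interval is longer than the 60-base probe, so that probe aligns in pieces.
Dlg2: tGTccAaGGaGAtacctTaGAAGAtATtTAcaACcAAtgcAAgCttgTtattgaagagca
Dlg3: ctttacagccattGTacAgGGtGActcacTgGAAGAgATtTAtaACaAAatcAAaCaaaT
Dlg4: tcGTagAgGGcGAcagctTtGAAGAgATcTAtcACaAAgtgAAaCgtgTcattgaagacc
In the shared stretch 25 of 48 bases were the same in all 3 genes. Pair by pair, 34 of 49 aligned bases were identical between Dlg3 and Dlg4 (69.4%), 39 of 59 between Dlg2 and Dlg4 (66.1%) and 31 of 48 between Dlg2 and Dlg3 (64.6%). The next closest pair of probes of different genes, Dlg1 and Shank2, had 16 of 30 aligned bases in common (53.3%). Cross-hybridisation between these probes was not tested. A further probe of Dlg4, A_44_P238314, printed in 10 spots, lies just upstream at chr10:56902480-56903016 and also aligns in pieces. It is shown because both Dlg4 probes carry the one pattern that separated the groups for a gene with more than 1 probe.
Dlg4: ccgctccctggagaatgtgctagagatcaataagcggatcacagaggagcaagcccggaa

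None of the 12 probes passed limma's moderated test between any of the groups, at an adjusted p under 0.05 with Benjamini-Hochberg adjustment over all 30322 kept probes. That held for the 7 probes found by the array's own names as well. The background was small: 0.0198% of all kept probes were called at 15 min against TTX (6 probes), 0.198% at 45 min against TTX (60 probes) and 0.129% between 45 and 15 min (39 probes). At an unadjusted p under 0.05 the count was also 0 of 12 in each comparison, where the shares of all kept probes were 3.36%, 6.37% and 6.61%. That count was not 0 under every alternative: it reached 2 at 15 min with slide as a fixed block and 2 at 45 min without the 45 min replicate 3, and it was 1 at 15 min without scaling, without TTX replicate 2 or without TTX replicates 2 and 3. It was also 1 at 45 min without TTX replicate 1, TTX replicate 2 or the 45 min replicate 1, and 1 between washout times with normexp correction or without the 45 min replicate 3. The lowest adjusted p of a member probe was 0.988 at 15 min, 0.794 at 45 min and 0.773 between the washout times. Leaving out 1 array at a time moved the counts over all probes to between 2 and 8 at 15 min, 31 and 203 at 45 min, and 20 and 232 between washout times, the last 2 highs without the 45 min replicate 1. No member probe was called with any one array left out.

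The arrays themselves registered the washout. Arc, an immediate early gene whose protein acts at excitatory synapses, was 5.32 (log2) higher at 45 min than in TTX (39.9-fold, limma adjusted p = 1.00e-05, higher on 3 of 3 arrays). At 15 min its difference of 1.68 did not pass the test (limma adjusted p = 0.200), although the arrays did not overlap. Fos, an immediate early gene that encodes a transcription factor, rose by 4.86 at 15 min and 6.61 at 45 min (limma adjusted p = 0.00170 and 2.12e-05). Egr1, a zinc finger transcription factor, rose by 2.10 and 4.19 (limma adjusted p = 0.00762 and 8.79e-06). Npas4, an activity-dependent transcription factor, was not well above background on any TTX array and was at least 19.7-fold higher at 15 min and at least 200.3-fold higher at 45 min (limma adjusted p = 0.00170 and 8.79e-06). The 15 min calls of Fos, Egr1 and Npas4 depended on the model. With slide as a fixed block 0 of all kept probes were called at 15 min against TTX, a comparison partly confounded with slide. Homer1, the scaffold that binds Shank proteins, differed by -0.01 at 15 min and 0.11 at 45 min by its brightest probe (limma adjusted p = 0.9998 and 0.931). The 45 min arrays of that probe lay above all TTX arrays, where 11.6% of all kept probes separated in either direction. The other Homer1 probe read -0.06 and 0.12. Which transcript forms of Homer1 these probes detect was not examined. Over the 9 arrays the values of a member probe spread by 0.31 to 0.88 (median 0.65), against a median of 0.75 for all kept probes and 5.70 for Arc.

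**Figure D1:**
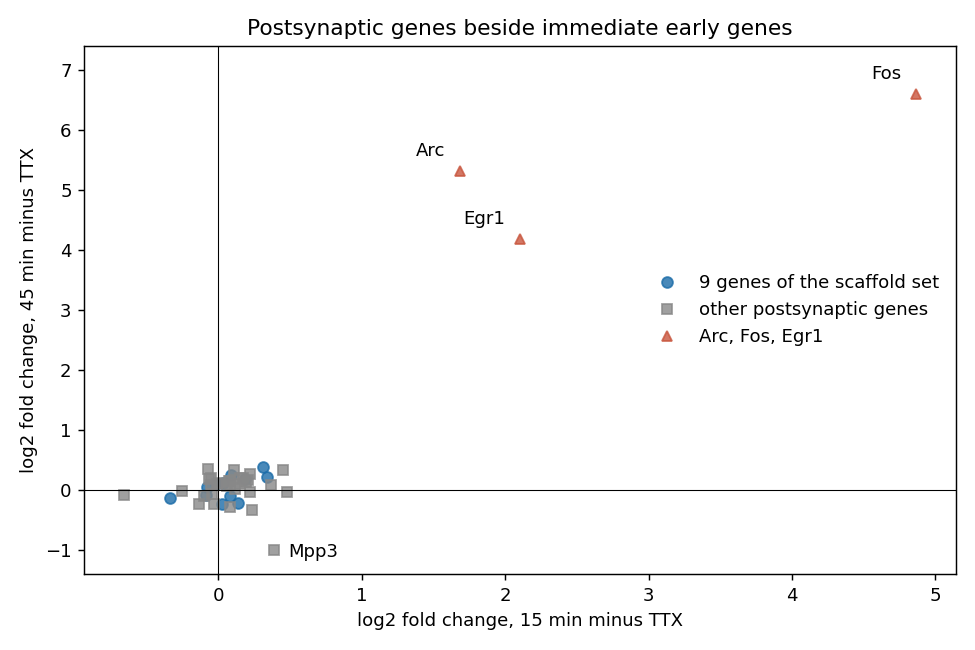
Log2 fold change against TTX at 15 min (horizontal axis) and at 45 min (vertical axis) for the 12 probes of the 9 genes (circles), 31 other postsynaptic genes (squares) and Arc, Fos and Egr1 (triangles); both axes share the TTX arrays, so a point's values on them are not independent. The circles stay between -0.34 and 0.38 on both axes, while Fos lies at 4.86 and 6.61.

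Camk2a was measured by 2 probes that differ in position. Values below are log2 processed signals minus the 75th percentile of the array, so a negative value means a signal under that percentile, and levels of different probes are not comparable. The 10-spot probe A_44_P296812 at chr18:57023052-57023111, which the array's annotation places in the 3′ untranslated region, stood at -0.79, 0.09 and -0.52 on TTX replicates 1 to 3. It stood at -0.31, 0.07 and 0.04 on the 15 min arrays, and at -0.02, -0.07 and -0.45 on the 45 min arrays. The TTX arrays were the widest apart of the 3 groups and enclosed every 15 and 45 min array. Its differences from TTX were 0.34 ± 0.23 (SE) at 15 min and 0.23 ± 0.23 at 45 min (limma adjusted p = 0.988 and 0.919, n = 3 arrays a group). With the slide as a fixed block, in which TTX replicate 1 alone carries the comparison with TTX, they were 0.86 and 0.74 (limma adjusted p = 0.999 and 0.9999).

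The other Camk2a probe, A_44_P101625, covers 60 bases drawn from chr18:56976633-56990498, an interval of 13866 bases, so it aligns in pieces, upstream of the first probe. It read -1.82, -1.71 and -1.72 on the TTX arrays, -1.67, -1.44 and -1.74 at 15 min, and -2.29, -1.96 and -1.64 at 45 min. The TTX arrays lay close together here, and the lowest values were those of the 45 min replicates 1 and 2. The mean was 0.35 ± 0.17 (SE) lower at 45 min than at 15 min, the largest fall of any member probe in that comparison, with overlapping arrays (limma adjusted p = 0.773). Within slide 3, which holds 2 arrays of each washout time, the difference was -0.25 (limma adjusted p = 0.819), and on slide 1, with 1 array of each, it was -0.55.

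The means of these Camk2a probes moved in opposite directions at 45 min against TTX, by 0.23 and -0.21. The distance between them, 10-spot minus upstream probe, was 1.34 ± 0.40 (SD, n = 3) in TTX, 1.55 ± 0.21 at 15 min and 1.78 ± 0.54 at 45 min. The change of that distance at 45 min was 0.44 (exact permutation test, two-sided, p = 0.3). The same test was run for the 3 genes with 2 probes in the 3 comparisons, 9 tests in all, and every adjusted p was 0.8 (exact permutation test, in which 3 against 3 arrays cannot go below 0.1). The 10 Camk2a spots, of which 7 to 10 were used, had an SD of 0.040 to 0.229 on an array. Between arrays the SD of this probe was 0.449 in TTX, 0.208 at 15 min and 0.232 at 45 min. The highest spot SD was on the 45 min replicate 2. The mean of the 10 spots there had an SE of 0.072, which was below the SD between the 45 min arrays.

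Dlg4 encodes PSD-95, the main Dlg scaffold of mature excitatory synapses. Its 10-spot probe, A_44_P238314, read -2.13, -1.73 and -1.68 in TTX, -1.88, -1.76 and -1.65 at 15 min, and -1.97, -1.93 and -1.95 at 45 min. The single-spot probe, A_44_P238312, read -2.99, -2.55 and -2.39 in TTX, -2.70, -2.70 and -2.46 at 15 min, and -2.81, -2.94 and -2.85 at 45 min. With both probes every 45 min array lay below every 15 min array, and TTX replicate 1 was the lowest of the 9 arrays. The TTX arrays enclosed all the others for the single-spot probe, and all but the 15 min replicate 3 for the 10-spot probe. The difference between 45 and 15 min was -0.19 ± 0.15 (SE) for the 10-spot probe and -0.25 ± 0.17 for the other, and neither passed the test (limma adjusted p = 0.842 and 0.825). Such a separation of the arrays, in either direction, was seen for 8.07% of all kept probes in this comparison.

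The Dlg4 probes share their RNA and are 1 gene, so they count as 1 observation of the transcript. Within slide 3 the differences between 45 and 15 min were -0.12 and -0.20 (limma adjusted p = 0.911 and 0.835), and on slide 1 they were -0.32 and -0.35. Against TTX the means differed by 0.08 and 0.03 at 15 min and by -0.11 and -0.22 at 45 min. With the slide as a fixed block the 45 min differences turned to 0.22 and 0.23 (limma adjusted p = 0.9999 for both). The SD between spots of the 10-spot probe ranged from 0.022 to 0.435 on an array. The SE of its mean over spots ran from 0.014 to 0.082 on the 15 min arrays and from 0.012 to 0.137 on the 45 min arrays. Its nearest arrays of these groups stood at -1.88 (15 min replicate 1) and -1.93 (45 min replicate 2), so the gap was small beside the larger of these SEs.

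Dlg1 encodes SAP97, a scaffold of trafficking vesicles and synapses, and its probe lies on the minus strand within chr11:70807276-70808200. It read -2.61, -2.79 and -3.01 in TTX, -2.95, -3.26 and -3.20 at 15 min, and -3.24, -3.02 and -2.54 at 45 min. The 15 min arrays were low as a group, overlapping only TTX replicate 3, while the 45 min arrays covered nearly the whole range of the 9. The 15 min mean was 0.34 ± 0.20 (SE) below TTX, the largest fall of a member probe at that time (limma adjusted p = 0.988). It was 0.59 below TTX on slide 1 alone, and with the slide as a fixed block the difference was -0.72 (limma adjusted p = 0.999).

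Dlg2 encodes PSD-93, a close relative of PSD-95 that also binds NMDA receptors. Its probe read -0.47, -0.41 and -0.28 in TTX, -0.54, -0.50 and -0.38 at 15 min, and -0.42, -0.90 and -0.09 at 45 min. The 45 min replicates 2 and 3 were the lowest and the highest of the 9 arrays, so that group enclosed both others. Its mean differed from TTX by -0.09 ± 0.19 (SE) at 15 min and by -0.08 ± 0.19 at 45 min (limma adjusted p = 0.994 and 0.967).

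Dlg3 encodes SAP102, a Dlg scaffold prominent early in synapse development. Its probe read -0.98, -0.87 and -0.90 in TTX, -0.88, -0.72 and -1.05 at 15 min, and -0.81, -0.85 and -0.69 at 45 min. Every 45 min array lay above every TTX array, the only member probe whose groups separated in that comparison, where 11.6% of all kept probes did. The lowest 45 min array stood at -0.85 and the highest TTX array at -0.87, and the means differed by 0.13 ± 0.13 (SE) (limma adjusted p = 0.917). At 15 min no member probe separated from TTX, while 13.9% of all kept probes did.

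**Figure D2:**
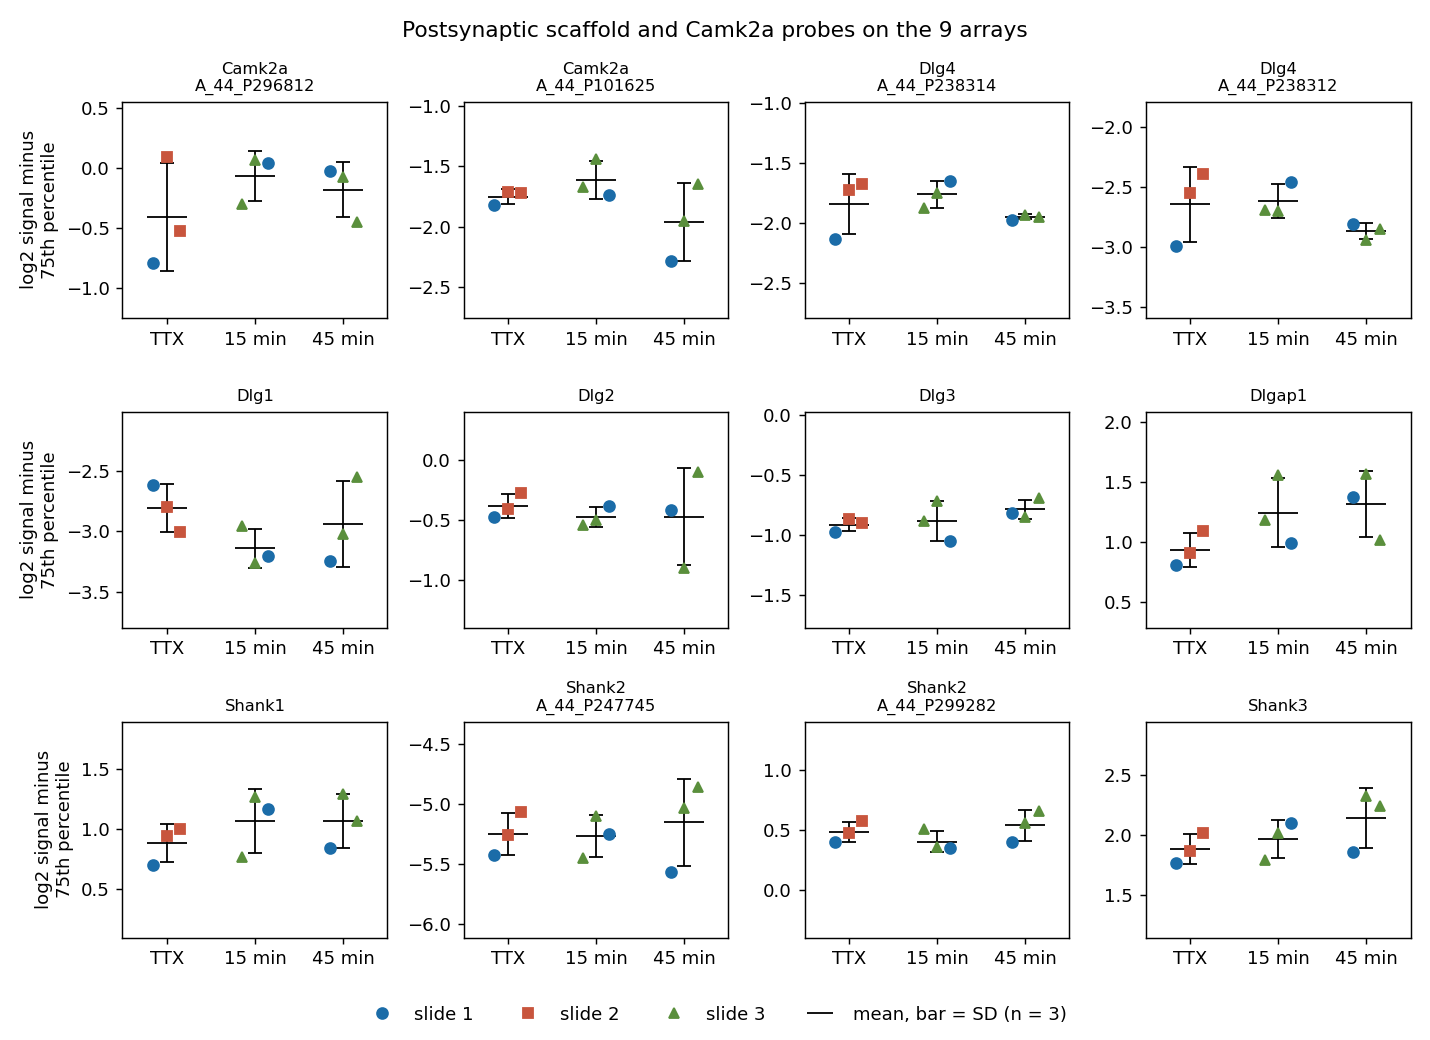
Scaled log2 signal, relative to the 75th percentile of each array (vertical axis, the same span in every panel) of the 12 probes in the TTX, 15 min and 45 min groups; points are arrays, their shape and colour mark the slide, long lines are means and bars are SD (n = 3). The 45 min arrays of both Dlg4 probes lie below the 15 min arrays, and the Dlg3 arrays at 45 min lie just above the TTX arrays.

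Dlgap1 encodes a guanylate kinase-associated protein that joins Dlg and Shank proteins, and its probe lies at chr9:110228156-110228215. It read 0.81, 0.91 and 1.09 in TTX, 1.19, 1.56 and 0.99 at 15 min, and 1.37, 1.57 and 1.02 at 45 min. At both times replicates 1 and 2 lay above all TTX arrays, and replicate 3 lay within the TTX range. The mean was 0.31 ± 0.19 (SE) above TTX at 15 min and 0.38 ± 0.19 above it at 45 min, the largest difference from TTX of any member probe at 45 min (limma adjusted p = 0.988 and 0.794). Its interval at 45 min ran from 0.965-fold to 1.76-fold. On slide 1 alone the differences were 0.18 and 0.56.

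The Shank genes encode the large scaffolds of the deeper layer of the density. Shank1 (chr1:94918064-94918123) read 0.70, 0.95 and 0.999 in TTX, 0.77, 1.26 and 1.17 at 15 min, and 0.84, 1.29 and 1.07 at 45 min. The means at 15 and 45 min, both 1.07, were 0.18 and 0.19 above TTX, with replicate 1 of each inside the TTX range (limma adjusted p = 0.988 and 0.912). Shank3 (chr7:127911834-127911893) read 1.77, 1.87 and 2.02 in TTX, 1.79, 2.02 and 2.10 at 15 min, and 1.86, 2.33 and 2.24 at 45 min. Replicates 2 and 3 at 45 min were its highest arrays, and the mean there was 0.26 ± 0.16 (SE) above TTX (limma adjusted p = 0.835). Without the 45 min replicate 1 the difference was 0.40, and the adjusted p of 0.307 was the lowest of any member probe under any setting at 45 min.

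Shank2 had 2 probes at neighbouring positions of chromosome 1. The probe at chr1:205008364-205008423, A_44_P299282, read 0.40, 0.48 and 0.57 in TTX, 0.51, 0.36 and 0.35 at 15 min, and 0.40, 0.56 and 0.66 at 45 min. It had the narrowest range of the 12 probes, 0.31 over the 9 arrays, and its mean differed from TTX by -0.08 ± 0.13 (SE) at 15 min and 0.05 ± 0.13 at 45 min (limma adjusted p = 0.988 and 0.968). The probe at chr1:205005382-205005441, A_44_P247745, read -5.42, -5.26 and -5.07 in TTX, -5.45, -5.10 and -5.25 at 15 min, and -5.56, -5.04 and -4.86 at 45 min. It differed from TTX by -0.02 ± 0.20 (SE) and 0.10 ± 0.20 (limma adjusted p = 0.9998 and 0.962). With the normexp background correction its 15 min difference was 0.59, the largest shift of a member probe under any alternative in that comparison.

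Over the 12 probes the median difference was 0.06 at 15 min against TTX, 0.08 at 45 min against TTX and 0.04 between 45 and 15 min, beside 0.04, 0.04 and 0.01 over all kept probes. For the 7 probes found by the array's own names the medians were 0.14, 0.19 and 0.07. Of the 12 differences 8, 7 and 8 were above 0, but only 2 at either time against TTX when arrays were not scaled to each other, a setting that moved the median of all probes to -0.16 and -0.22. The comparisons with TTX share the TTX arrays and are not independent of each other. In bulk cultures a lower signal cannot be told apart as fewer cells of a type or less RNA per cell.

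The intervals bound what could have changed. All 12 of the 95% intervals lay within a 2-fold change in either direction in each comparison, from 0.582-fold to 1.82-fold at 15 min, 0.659-fold to 1.76-fold at 45 min and 0.600-fold to 1.57-fold between them. Of all kept probes 87.6%, 86.2% and 85.2% had intervals that narrow. Within 1.5-fold the counts were 8, 6 and 8 of 12, beside 51.2%, 49.4% and 48.4% of all kept probes. With slide as a fixed block the intervals against TTX widened, to a highest bound of 3.098-fold at 15 min and 2.86-fold at 45 min, and 9 and 8 of 12 stayed within 2-fold. Without TTX replicates 2 and 3 it was 8 of 12 at either time. At 15 min 11 of 12 stayed within 2-fold without TTX replicate 2 (highest bound 2.07-fold), without the 15 min replicate 1 (2.08-fold) and with normexp correction (2.54-fold). With normexp 10 of 12 did between washout times (lowest bound 0.452-fold), and without scaling 11 of 12 did at 45 min (0.481-fold). For the remaining probes a 1.5-fold change in at least one direction lay inside the interval.

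**Figure D3:**
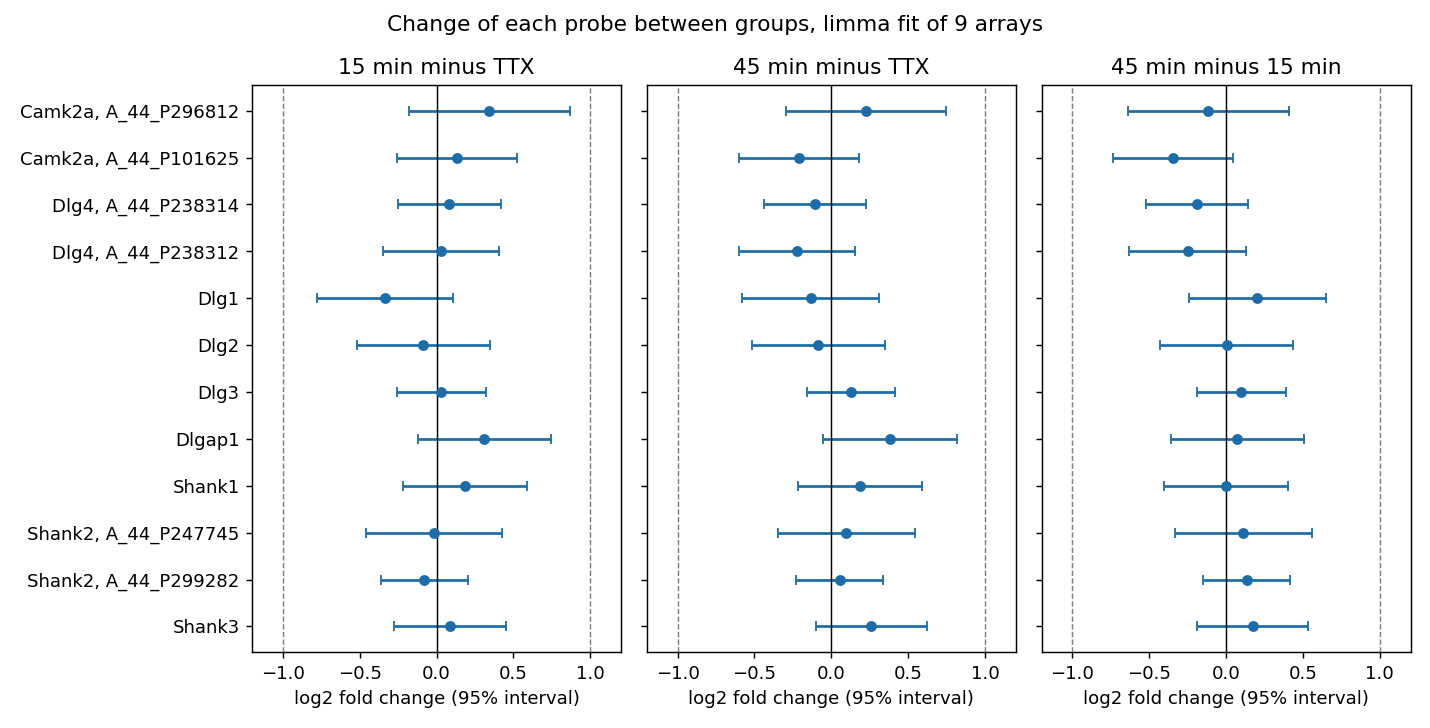
Log2 fold change of each of the 12 probes (points) with its 95% interval (bars) from the limma fit of 9 arrays, for 15 min minus TTX, 45 min minus TTX and 45 min minus 15 min; dashed lines mark 2-fold. Every interval crosses 0 and lies inside the 2-fold lines.

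One array stood apart for these genes. TTX replicate 1 was the lowest TTX array for 11 of the 12 probes, all but that of Dlg1, whereas 39.0% of all kept probes were lowest there. The count was 11 of 12 with quantile normalization (36.5% of all kept probes) and without scaling (54.2%), and 9 of 12 with normexp correction (30.3%). TTX replicate 3 was the highest TTX array for 8 of the 12 (29.0% of all kept probes). The 45 min replicate 1, on the same slide as TTX replicate 1, was the lowest of its group for 7 of 12 (43.3%), and the 15 min replicate 3, the remaining array of that slide, for 4 of 12 (38.9%). Without TTX replicate 1 the median difference of the 12 probes was -0.03 at 15 min and 0.01 at 45 min. Without TTX replicates 2 and 3, which make up slide 2, it was 0.20 and 0.19. The part of the slide in these values was not tested apart from the groups, because slide 2 holds TTX arrays alone.

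**Figure D4:**
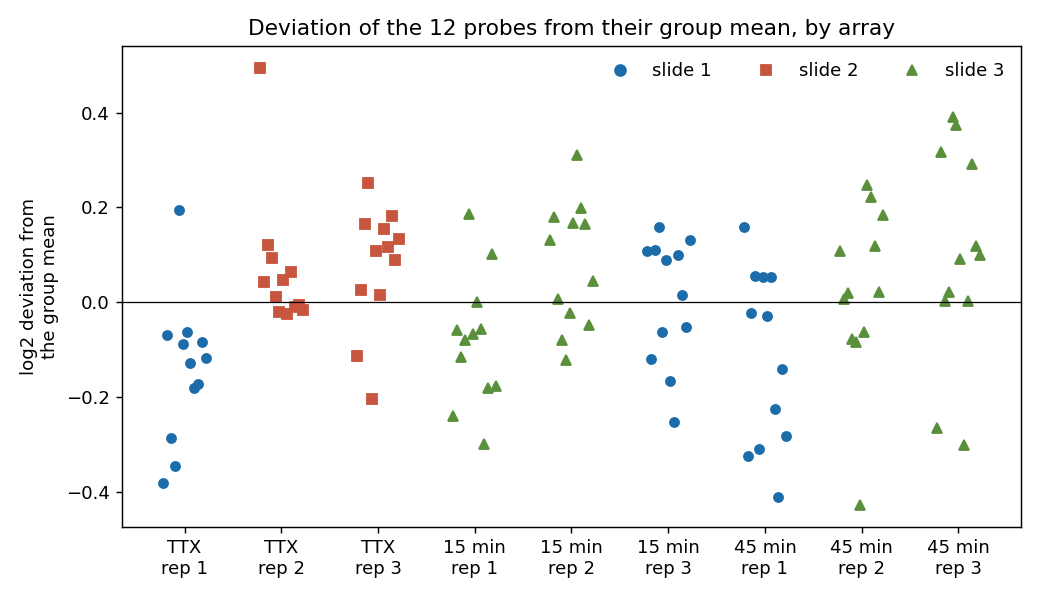
Deviation of each of the 12 probes from its own group mean (vertical axis, log2) on each of the 9 arrays (horizontal axis); each point is a probe, and its shape and colour mark the slide. On TTX replicate 1 all points but that of Dlg1 lie below 0.

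Other genes of the postsynaptic density were measured beside the members. Of 35 such genes listed, 31 were measured, each by its brightest probe, and 0 were called in any comparison by limma. At an unadjusted p under 0.05 there were 2 at 15 min, 1 at 45 min and 2 between them, of 31 genes each, where the shares of all kept probes were 3.36%, 6.37% and 6.61%. Their median differences were 0.08, 0.09 and 0.01. Above TTX at 15 min, the largest were Mpp2, a membrane-associated guanylate kinase, with 0.48, and Baiap2, an actin regulator that binds Shank proteins, with 0.45 (limma adjusted p = 0.988 for both). The probes of Mpp2 disagreed: its other 2 read 0.10 and 0.03 at 15 min, and the 3 differed by -0.51, 0.49 and -0.15 between 45 and 15 min. The other Baiap2 probe read 0.43 at 15 min. The largest below it were the kinase subunit gene Camk2d, with -0.66, and the calcineurin subunit gene Ppp3ca, with -0.25 (limma adjusted p = 0.988 for both), whose other probe read -0.07. For Camk2d the 15 min replicate 2 stood at -4.89 and every other array between -3.54 and -2.88.

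At 45 min the cortactin gene Cttn, whose protein binds Shank and actin, was 0.35 and Baiap2 0.34 above TTX by their brightest probes (limma adjusted p = 0.815 and 0.811). The other probe read 0.10 for Cttn and 0.21 for Baiap2, and another probe of Mpp2, A_43_P16519, named after its value was seen, was 0.59 above TTX (limma adjusted p = 0.646). Mpp3, another membrane-associated guanylate kinase, was the furthest below it. Its probe read -3.41, -3.12 and -2.73 in TTX, -2.98, -2.25 and -2.87 at 15 min, and -3.93, -4.61 and -3.71 at 45 min. All 45 min arrays lay below all the others, and the mean differed by -0.997 ± 0.29 (SE) from TTX and by -1.38 ± 0.29 from 15 min (limma adjusted p = 0.556 and 0.248). Arrays separated, in either direction, for 11.6% of all kept probes at 45 min against TTX and for 8.07% between washout times. Of the 31 listed genes 2 separated in each of these comparisons. Camk2n1, an inhibitor of the kinase, was 0.33 below TTX at 45 min and 0.57 below 15 min (limma adjusted p = 0.941 and 0.841), with the 45 min replicate 3 at 2.41 and the 8 other arrays between 3.71 and 4.47. The other Camk2n1 probe went the other way against TTX, by 0.16, and differed by -0.04 between 45 and 15 min. Between 45 and 15 min Camk2d was 0.58 and Cttn 0.42 higher (limma adjusted p = 0.831 and 0.765), with 0.28 for the other Cttn probe. The Camk2d difference includes its low 15 min replicate 2, at -4.89.

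The genes whose pattern over the 9 arrays was most like that of a member are given as a description, by the root mean square of the difference between values centred on their own means. For the 10-spot Camk2a probe they were Mmp25 (0.147), Prpf19 (0.164) and Dysf (0.191), among 3208 genes that varied at least as much, with a median of 0.490. For the 10-spot Dlg4 probe they were Tgfb2 (0.062), Tjp3 (0.068) and Myh3 (0.073), among 8878 such genes, with a median of 0.294. All of these share the arrays and their scaling. Each has its lowest TTX value on TTX replicate 1, as both member probes do, which the choice by likeness favours.

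The cultures carried neuronal transcripts, as labelled. All 7 neuron markers, the 5 of 6 excitatory neuron markers found on the array and all 6 inhibitory neuron markers stood above background on every array, as did 5 of 6 astrocyte, 6 of 6 oligodendrocyte and 5 of 6 endothelial and fibroblast markers. Of 6 microglia markers 2 did, and Aif1 and Cx3cr1 were above background on no array. None of these markers was called in any comparison. The summed level of the excitatory neuron markers, on a linear scale relative to the 75th percentile, ranged from 23.6 to 26.8 in TTX, 26.4 to 30.9 at 15 min and 17.1 to 33.9 at 45 min, and that of the astrocyte markers from 64.1 to 76.5, 66.1 to 73.2 and 56.1 to 80.3. The part of cell composition in the differences of the member probes was not tested. Per array, 72.4 to 77.9% of probes were well above background, and the signal had its 75th percentile between 1563 and 2526.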

How the data were processed

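Total RNA of 9 rat cortical cultures was measured on Agilent arrays, 500 ng of RNA per sample. Per the file headers, the scanner files of design 014879 (Feature Extraction 9.5.3.1; version 9.5 per the submitters' processing notes) hold spot intensities, and the processed signal is an intensity after background subtraction, with no scaling between arrays. The deposited series value table holds the same intensity values (largest difference 0) and served as the alternative without scaling. Probe positions refer to rn3.

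The log2 processed signal minus each array's 75th percentile was analysed. Control spots and spots marked as outliers were left out, spots of a probe were averaged, and a probe was kept if every array of 1 group or more had it well above background and at most 1 array lacked it. For a probe below background throughout a group, the fold is a lower bound against the dimmest signals well above background. Probes were renamed by accession (10735), symbol (5571) or synonym (3729) through the RefSeq table of GRCr8, and 20977 kept the file's name; this is how Dlgh1 to Dlgh4 were matched. limma 3.58.1 in R 4.3.3 fitted a mean per group over all 9 arrays (6 residual degrees of freedom), tested on simulated data first. In that simulation, for 45 min against TTX, 0 of 50 probes raised by 0.5 (log2) were called. Of those raised by 1 it was 23 of 50, and of those raised by 2 it was 37 of 50. Differences as small as those of the member probes could thus go uncalled. Two-sided p-values were adjusted over all kept probes. Figures used matplotlib 3.10.9. The number of arrays limits the precision.

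Slides were read from the array identifiers. Slide 1 held TTX replicate 1, 15 min replicate 3 and 45 min replicate 1. TTX replicates 2 and 3 were on slide 2, and the remaining arrays on slide 3. Comparisons with TTX are thus partly confounded with slide.

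The members, the list of 35 other postsynaptic genes, the markers and the tests were chosen with earlier results of these data known. The text names every member probe, the 2 listed genes with the largest rise and fall in each comparison, Arc, Fos, Egr1, Npas4 and Homer1, and the 3 genes most like Camk2a and Dlg4. The listed genes Iqsec1, Iqsec2, Lrrtm1 and Lrrtm2 were not matched to a kept probe. Alternatives covered normalization, background correction, filters, slide and replicate blocks, the variance model, the brightest probe per gene, only the groups compared and leaving out each array.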

Additional observations from a re-analysis of the deposited data

How the results depend on the processing

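No member probe was called under any alternative, the lowest adjusted p being 0.548 at 15 min, 0.307 at 45 min and 0.375 between washout times. The differences of the 12 probes changed sign in 21 of 249, 17 of 249 and 18 of 261 alternative values, and 3, 3 and 7 of the 12 probes never changed sign. The median of the 12 probes at 45 min against TTX was -0.18 without scaling. Counts over all probes moved more, and the cause was not tested: at 15 min against TTX (6) to 2 with normexp correction, 0 with slide as a fixed block, 10 with only the groups compared and 0 without TTX replicates 2 and 3, an alternative added after the data were seen. At 45 min against TTX (60) they were 34 without scaling, 26 with normexp, 37 without a filter, 25 with slide as a fixed block, 33 with only the groups compared and 19 without TTX replicates 2 and 3. Between washout times (39) they were 16 with normexp, 22 without a filter, 0 within slide 3, 21 with only the groups compared and 21 without TTX replicates 2 and 3. Leaving out 1 array gave 2 to 8, 31 to 203 and 20 to 232. The same-numbered arrays correlated by 0.06 to 0.38 in their deviations from the group means, and all 9 arrays correlated best with their own number, a hint from the data alone. With the replicate number as a block 5, 51 and 30 probes were called and 0 of the 12. Normexp correction moved the median of all probes to 0.20 and 0.12 against TTX and to -0.19 between washout times.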
